A study of Mus musculus with 81 samples.

Results

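The effect of histone H3.3 loss was described across all genes in bone marrow cells cultured for 5 days toward macrophages, a stage that the labels call progenitors. The members were the 6 libraries titled as day 5 progenitors, 3 cKO and 3 WT, of 81 samples in the series. They belong to a time course of 18 libraries that also sampled days 3 and 7. WT cells came from C57BL/6 mice with H3f3a fl/fl and H3f3b fl/fl alleles and no cre. The cKO cells carried the same floxed alleles together with LysM cre/cre, a cre recombinase placed in both copies of the lysozyme gene Lyz2 and active in macrophages and granulocytes. Mice were 8 to 10 weeks old, and marrow from the leg bones was grown in medium conditioned by L929 cells, a source of the macrophage growth factor M-CSF. The loxP sites flank exon 2 of H3f3a and exons 1 to 4 of H3f3b, per the study's methods. Since no library carried cre without the floxed alleles, loss of H3.3, loss of Lyz2 and the presence of cre cannot be told apart here.

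H3.3 is a variant of histone H3 that is placed into chromatin at any time of the cell cycle, whereas the core H3 proteins are placed mainly behind the replication fork. The interferon system is among the main inducible programmes of the macrophage lineage. Type I interferons bind the IFNAR receptor, the kinases JAK1 and TYK2 phosphorylate STAT proteins such as STAT2, and these join IRF9 to activate genes whose promoters hold the interferon-stimulated response element. IRF7, sensors of foreign nucleic acid, antiviral effectors, guanylate-binding proteins and class I antigen presentation are among the products.

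The targeted genes were read first. H3f3a (chromosome 1, 180800832 to 180813943, minus strand, mm10) was at 46.0, 47.2 and 48.1 CPM in WT libraries 1, 2 and 3 (CPM, counts per 1e+06 counts of the library size scaled by TMM normalization). It was at 8.94, 9.96 and 8.96 CPM in the cKO libraries. The groups did not overlap, and the cKO mean was 19.7% of the WT mean (log2 fold change -2.34, SE 0.16, n = 3 against 3, adjusted p = 7.33e-07). Adjusted p-values are from edgeR's quasi-likelihood test with Benjamini-Hochberg adjustment over 15955 genes, with 0.05 as the threshold for a call.

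H3f3b (chromosome 11, 116021912 to 116027962, minus strand) was at 199, 231 and 224 CPM in WT and at 206, 160 and 149 CPM in cKO. cKO library 1 lay within the WT range and the other two below it, and the difference did not pass the test (log2 fold change -0.35, SE 0.16, adjusted p = 0.334). The cKO mean was 78.7% of WT, although the methods place loxP sites around all of its exons. The study's own note on the model is that recombination at H3f3b was incomplete in some cKO samples. How much of the remaining level came from unrecombined alleles was not tested, and neither was the part of reads from near-identical copies elsewhere in the genome. Lyz2 (chromosome 10), which holds the cre, was at 8760, 8870 and 9010 CPM in WT and at 7.17, 6.23 and 8.27 CPM in cKO. Its cKO mean was 0.0813% of WT (log2 fold change -10.27, SE 0.57, adjusted p = 8.12e-08), the largest fall of all genes tested. Of 10 replication-coupled H3 genes tested, 0 passed in either direction, and Hist1h3c was at 149, 153 and 161 CPM in WT and 130, 191 and 210 CPM in cKO. These genes share long identical stretches, so reads between them are uncertain.

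**Figure D1:**
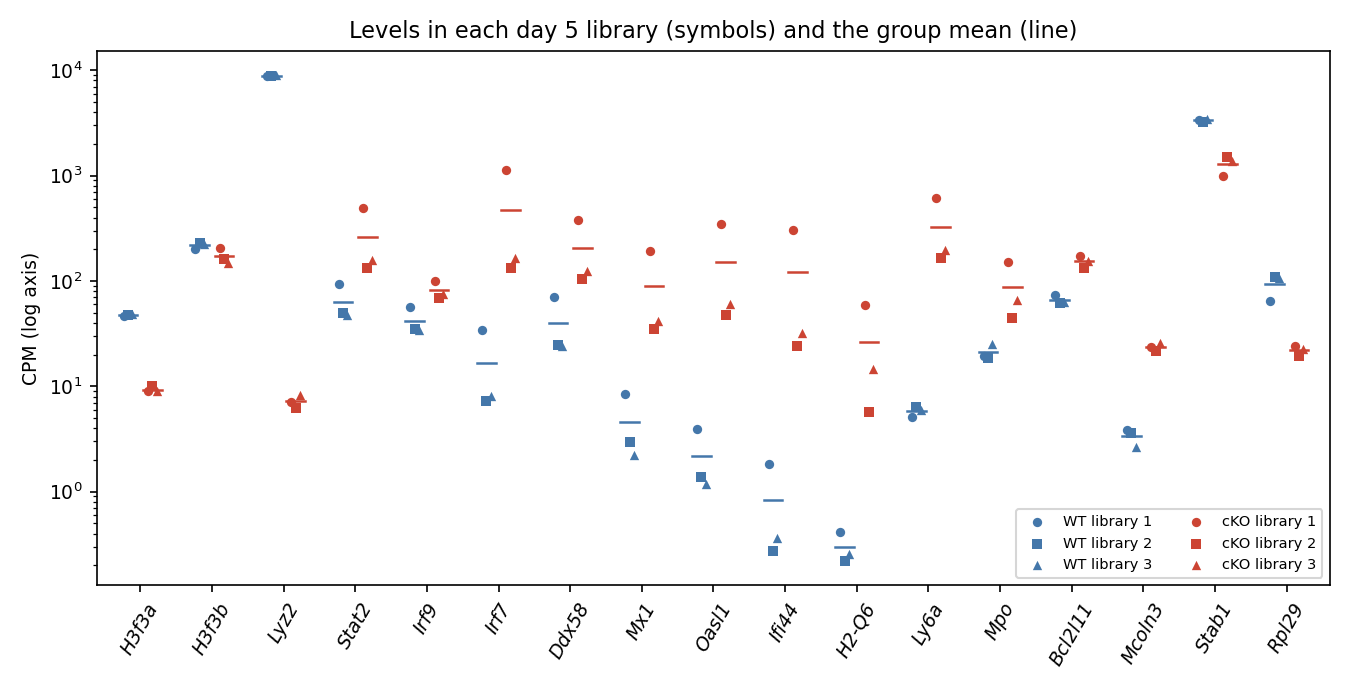
CPM on a log axis for selected genes in each of the 6 day 5 libraries, with WT and cKO side by side, library numbers shown by symbols and the group mean by a line. H3f3a and Lyz2 are lower in every cKO library, and for the interferon-response genes cKO library 1 lies above cKO libraries 2 and 3.

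Libraries held 15687100 to 19316661 counts on genes, and mitochondrial genes took 2.39 to 3.32% of these in WT and 1.27 to 1.99% in cKO. Macrophage markers were present in both groups. Csf1r, the M-CSF receptor, was at 1550 to 1750 CPM in WT and 1490 to 1670 in cKO, and Adgre1 (F4/80) at 857 to 1040 and 738 to 1450. Cd14 was at 122 to 183 CPM in WT and 145 to 261 in cKO. Lower in every cKO library were Itgam (165 to 175 against 121 to 143), Cd68 (669 to 794 against 499 to 642) and Mertk (62.1 to 78.7 against 27.6 to 55.8). Fcgr1 was higher in every cKO library (73.4 to 89.1 against 155 to 656). None of these macrophage markers passed the test. Kit, a receptor of early progenitors, was at 2.49 to 2.98 CPM in WT and 5.23 to 11.2 in cKO. The T and NK cell genes Cd3g and Ncr1 had no counts in any of the 6 libraries. The Y-linked gene Ddx3y was between 61.7 and 76.6 CPM in all 6 libraries. Libraries numbered 1 stood apart in both genotypes: the chi-square per degree of freedom between their counts and those of the other libraries of their group was 34.6 and 38.9 in WT and 51.1 and 40.7 in cKO. Between libraries 2 and 3 it was 3.48 in WT and 5.37 in cKO. Numbers of calls, and several results below, are therefore also given without 1 or both of them. The interferon-gamma split, the promoter shares and the overlaps between days are given with all libraries only.

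Of 15955 genes tested, 499 (3.13%) differed between cKO and WT on day 5. Higher in cKO were 394 genes (2.47%) and lower were 105 (0.658%). The median log2 fold change was 2.05 among the called higher genes, up to 8.85, and 107 of them were at 3 or more. It was -1.09 among the called lower genes, and 3 of them were at -3 or below. A change of at least 1 on the log2 scale was seen in 400 of the called genes (2.51% of those tested), and 2244 genes (14.1%) had an unadjusted p under 0.05. The median over all genes tested was 0.01. Without regard to a test, all 3 cKO libraries lay above all 3 WT libraries for 2455 genes (15.4%) and below them for 1768 (11.1%). Protein-coding genes made up 349 of the higher and 99 of the lower genes.

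The number of calls depended on single libraries. It was 324 without WT library 1, 126 without WT library 2, 99 without WT library 3 and 124 without cKO library 1. It was 581 without cKO library 2 and 431 without cKO library 3. With both libraries numbered 1 left out, 166 genes were called, of which 156 were among the 499. Of the 193 genes named by a fixed rule or printed after their values were seen, 94 were called and 27 of these stayed called whichever single library was left out. Among them are H3f3a, Lyz2, Rpl29, Gm42031, Cbr2, Plxnd1 and Rac3, which fell, and Ly6a, Ly6c1, Ly6c2, Plac8, Ifi44, Ifi213, Mx1, Apol9b, Gbp8, Gm4951, H2-Q5, H2-Q6, H2-Q7, Rab15, Mcoln3, Flrt3, Cttn, Bcl2l11 and Pmaip1, which rose. Ly6c1 was near the floor, with 0 counts over the WT libraries and 21 over the cKO libraries. With both libraries numbered 1 left out, Ly6c1, Bcl2l11 and Cttn were among those not called (adjusted p = 0.0614, 0.0576 and 0.0712).

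**Figure D2:**
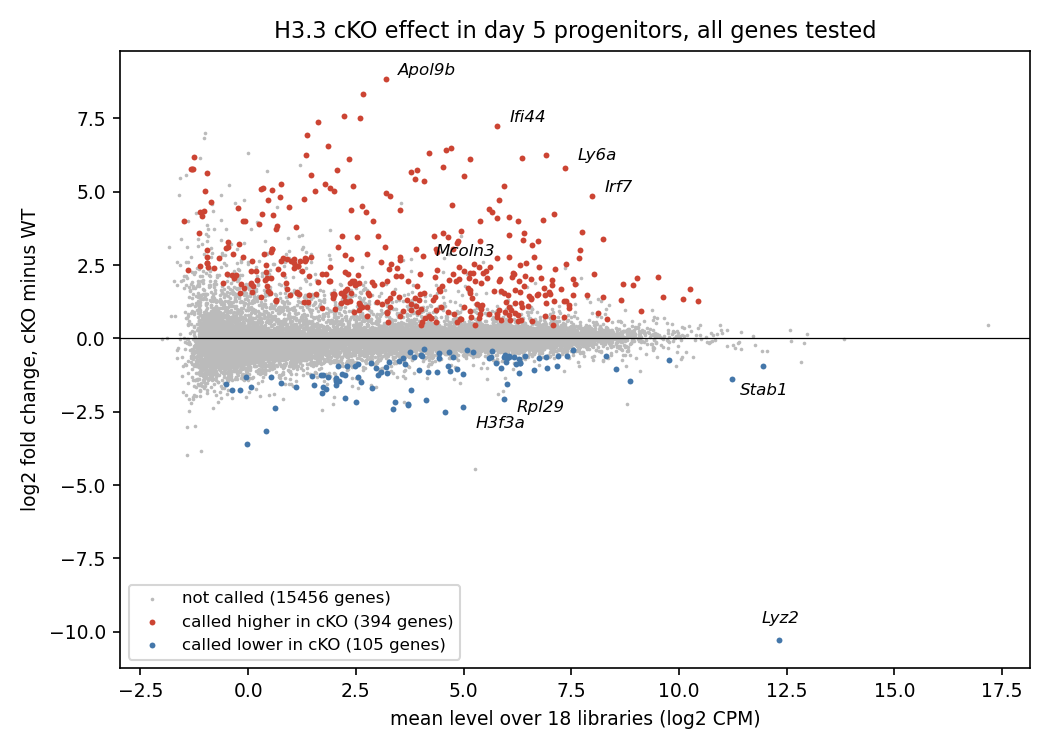
Log2 fold change of cKO over WT on day 5 against the mean log2 CPM over the 18 time-course libraries, 1 point per gene tested, with called genes coloured. The 394 called higher genes reach 8.85, and Lyz2 stands alone at -10.27.

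Many genes of the interferon response rose. Of 130 tested members of 7 lists (feedback inhibitors, nucleic acid sensors, antiviral effectors, guanylate-binding proteins and IRGs, Schlafens, class I antigen presentation, and STATs and IRFs), 82 (63.1%) rose and 0 fell. This stands against 2.47% higher and 0.658% lower over all genes. Their median log2 fold change was 1.70, and 102 of the 130 had all 3 cKO libraries above all 3 WT libraries, against 15.4% of all genes. Relative to the WT day 5 mean, the median log2 level of these genes was 0.57, -0.26 and -0.25 in WT libraries 1 to 3 and 2.50, 1.01 and 1.19 in cKO libraries 1 to 3. Library 1 was the highest of its group in both genotypes, and the groups did not overlap. The count was 73 without WT library 1, 8 without WT library 2 or WT library 3, and 25 without cKO library 1. It was 92 without cKO library 2, 83 without cKO library 3 and 55 with both libraries numbered 1 left out. The median was 1.06 without cKO library 1, the lowest value under any alternative, and stayed above 0 in all 18 alternatives.

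Promoter stretches of 6 genes of the interferon response are printed because they held the core of the interferon-stimulated response element, which was searched as GAAA, any 2 bases and GAAA on both strands. Capitals mark the matches, which may overlap, and a match is a description of letters and not a bound site. The sequences are from RefSeq on GRCm38.p6, each read 5′ to 3′ on the strand of its gene. They belong to the antiviral genes Ifit3 (chr19:34583333-34583456, plus strand), Isg15 (chr4:156200835-156200936, minus strand) and Bst2 (chr8:71537547-71537642, minus strand), to Apol9b (chr15:77728995-77729090, plus strand), to the DNA sensor family member Ifi213 (chr1:173599296-173599385, minus strand) and to the signal transducer Stat2 (chr10:128270248-128270325, plus strand).
Ifit3: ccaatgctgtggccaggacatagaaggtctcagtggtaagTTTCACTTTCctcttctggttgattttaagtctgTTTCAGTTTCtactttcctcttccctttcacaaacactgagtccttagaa
Isg15: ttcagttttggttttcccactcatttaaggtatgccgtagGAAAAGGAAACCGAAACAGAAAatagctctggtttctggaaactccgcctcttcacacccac
Apol9b: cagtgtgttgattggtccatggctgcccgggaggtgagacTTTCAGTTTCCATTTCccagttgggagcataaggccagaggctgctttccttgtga
Ifi213: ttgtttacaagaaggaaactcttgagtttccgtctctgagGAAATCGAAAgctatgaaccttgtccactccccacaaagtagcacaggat
Stat2: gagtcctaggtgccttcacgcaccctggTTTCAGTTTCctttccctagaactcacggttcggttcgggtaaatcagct
Bst2: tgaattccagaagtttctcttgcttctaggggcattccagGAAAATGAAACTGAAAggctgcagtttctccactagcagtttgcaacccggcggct
The core was found in the promoters, 250 bases before to 50 after the start, of 67 of 283 called higher genes with a promoter in the table (23.7%). It was found in 3 of 81 called lower genes (3.70%) and in 420 of 10620 genes tested (3.95%). Of all 32851 promoters in the table, 1131 (3.44%) held it. Called higher genes that interferon-gamma raised in WT macrophages held it in 58 of 168 cases (34.5%), and those it did not raise in 8 of 79 (10.1%). No match lay in the windows of Ifi44, Oasl1, Irf7, Slfn4 or H2-Q6, which says only that these letters are not there.

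The ligands were near the floor of detection. Of 18 interferon ligand genes, 13 had 0 counts in all 6 libraries. Ifnb1, which encodes interferon-beta, had 1, 1 and 1 counts in WT and 32, 1 and 0 counts in cKO. The cKO counts thus came almost entirely from library 1. The share of counts was 10.4 times higher in cKO over the summed libraries, with a 95% interval of 3.25 to 52.8 that covers counting error only, and the gene did not pass the test (adjusted p = 0.225). On day 3 the 3 cKO libraries held 73 counts of Ifnb1 and the 3 WT libraries 1.

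Receptors and kinases mostly did not pass the test. Of 7 tested, 1 passed the test, Jak2, a kinase of the interferon-gamma receptor. It was at 44.7, 42.0 and 40.3 CPM in WT and 82.0, 57.2 and 58.5 CPM in cKO (log2 fold change 0.64, SE 0.16, adjusted p = 0.0419). The groups did not overlap, but the call was lost without any of WT libraries 1 to 3, cKO library 1 or cKO library 3 (adjusted p at most 0.259). Ifnar1, which encodes a chain of the type I receptor, was at 192 to 210 CPM in WT and 166 to 171 in cKO and did not pass (adjusted p = 0.248).

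Among 16 STATs and IRFs, 5 rose (31.2%, against 2.47% of all genes), 0 fell and 11 did not pass. The count was 0 without WT library 2, WT library 3 or cKO library 1. Those that rose include Stat2, Irf1, Irf7 and Irf9. Irf7, the transcription factor that amplifies type I interferon production, was at 34.3, 7.24 and 8.05 CPM in WT and 1130, 133 and 166 CPM in cKO. Its groups did not overlap, and library 1 was the highest of each (log2 fold change 4.85, SE 0.94, adjusted p = 0.0114). Stat2 was at 94.6, 49.3 and 47.6 CPM in WT and 495, 134 and 159 CPM in cKO, again with groups apart (log2 fold change 2.04, SE 0.42, adjusted p = 0.0154). Irf9 rose by 0.95 on the log2 scale. Calls of these genes were each lost without WT library 2, WT library 3 or cKO library 1, with adjusted p-values of up to 0.0823 for Irf7, 0.0990 for Stat2, 0.0818 for Irf9 and 0.194 for Irf1. Stat3, Stat4, Stat5a, Stat5b and Stat6 did not pass, and neither did Irf3, which was at 30.1 to 37.3 CPM in WT and 32.6 to 37.3 CPM in cKO.

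Of 12 tested members of the list of feedback inhibitors, 8 rose (66.7%, against 2.47% of all genes, with a median log2 fold change of 1.49). The list is broad, and the 8 include Isg15, Sp100 and Nlrc5 as well as Usp18 and Socs1. Its members Socs2, Socs3, Cish and Pias1 did not pass (adjusted p at least 0.567). The count was 0 without WT library 2, 1 without WT library 3 and 2 without cKO library 1. Usp18, which removes ISG15 and restrains the receptor, was at 11.5, 3.81 and 4.59 CPM in WT and 254, 43.0 and 52.4 CPM in cKO (log2 fold change 4.14, SE 0.73, adjusted p = 0.00665). Its call was lost without WT library 2 or WT library 3 (adjusted p at most 0.0602). Of 19 sensors and adaptors, 8 rose (42.1%) and 11 did not pass (median 0.75, with 4 below 0). Here the count was 0 without WT library 2 or WT library 3 and 2 without cKO library 1. The cytosolic RNA sensor Ddx58 (RIG-I) was at 70.7, 24.9 and 24.2 CPM in WT and 383, 104 and 124 CPM in cKO (log2 fold change 2.35, SE 0.49, adjusted p = 0.0154; up to 0.101 without WT library 2, WT library 3 or cKO library 1). Tmem173 (STING), an adaptor of the DNA-sensing pathway, was at 32.9 to 52.1 CPM in WT and 47.8 to 102 CPM in cKO and did not pass (adjusted p = 0.140).

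The largest group of rises was in effectors. Of 39 antiviral effectors 28 rose (median log2 fold change 2.56), and of 16 guanylate-binding proteins and IRGs 13 rose (median 3.36), which is 71.8% and 81.2% against 2.47% of all genes. The counts were 2 and 3 without WT library 2, 2 and 2 without WT library 3, and 5 and 7 without cKO library 1. Ifi44 was at 1.85, 0.276 and 0.361 CPM in WT and 306, 24.3 and 32.3 CPM in cKO, a log2 fold change of 7.22 (SE 1.2, adjusted p = 0.00493). Every cKO library was far above every WT library, and library 1 was again the highest in each group. Mx1, a dynamin-like restriction factor of viruses, was at 8.48, 2.93 and 2.22 CPM in WT and 191, 35.0 and 41.3 CPM in cKO (log2 fold change 4.31, SE 0.69, adjusted p = 0.00433). Apol9b had 2 counts over the WT libraries and 1047 over the cKO libraries, a ratio of count shares of 493 with a 95% counting interval of 136 to 4080. Gbp6 had 2 and 382 counts (ratio 180, interval 49.5 to 1490), and its call was lost without WT library 3 (adjusted p = 0.0513). Isg15, a ubiquitin-like modifier, rose by 4.40 (adjusted p = 0.0271; up to 0.219 without WT library 2, WT library 3 or cKO library 1). Of 7 Schlafens, 4 rose (0 without WT library 2 or WT library 3), led by Slfn4 at 6.24 (adjusted p at most 0.0523 without WT library 2 or WT library 3). Bst2 (tetherin), among the printed promoters, did not pass (log2 fold change 1.86, adjusted p = 0.111).

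Of 22 class I antigen presentation genes tested, 17 rose (77.3%, against 2.47% of all genes; median log2 fold change 1.31), and 21 had groups apart, against 15.4% of all genes. The count was 3 without WT library 2 or WT library 3, 6 without cKO library 1 and 8 with both libraries numbered 1 left out. H2-Q6, a nonclassical class I gene, was at 0.418, 0.221 and 0.258 CPM in WT and 58.5, 5.74 and 14.5 CPM in cKO (log2 fold change 6.43, SE 0.88, adjusted p = 0.00150). H2-Q5 and H2-Q7 rose by 4.01 and 5.36. These genes are close paralogs, so how reads divide among them is uncertain, as for the Gbp, Ifit, Oas, Slfn and Ly6c families. Of 11 class II genes 0 passed (median 0.37), and the invariant chain Cd74 was at 34.3 to 94.6 CPM in WT and 78.9 to 98.8 CPM in cKO. The difference between the class I and class II lists was not tested. Of 18 chemokines 1 passed, Cxcl10, at 4.06 to 5.06 CPM in WT and 20.8 to 88.1 CPM in cKO, and of 13 inflammatory cytokines 2 passed, Il18 and Tnfsf10. Cxcl10 lost its call without any of WT libraries 1 to 3 or cKO library 1 (adjusted p at most 0.217), and Il18 and Tnfsf10 without WT library 2, WT library 3 or cKO library 1 (at most 0.0661 and 0.102).

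**Figure D3:**
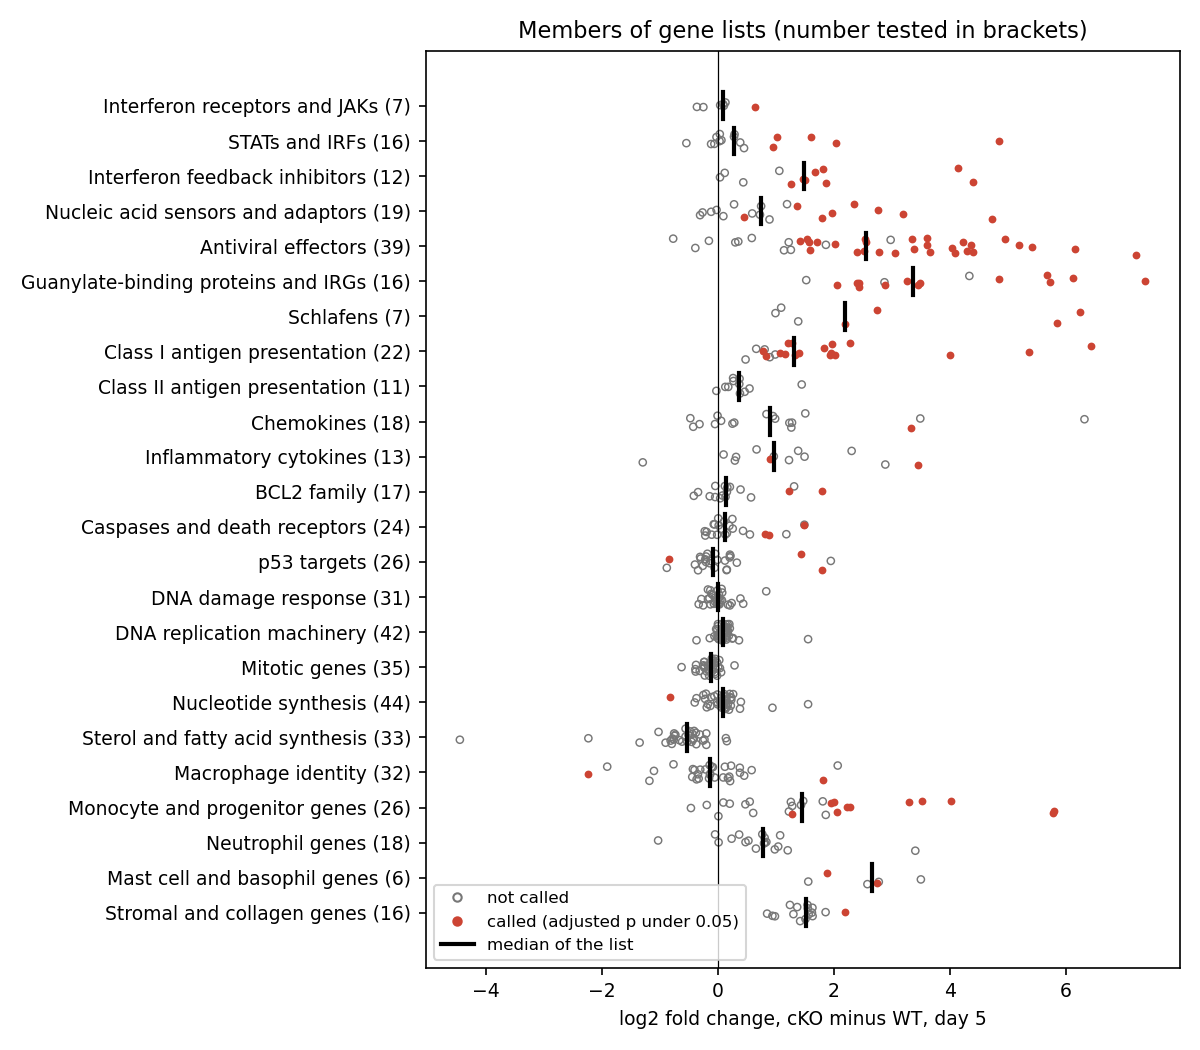
Log2 fold change of each tested member of the gene lists on day 5, 1 point per gene, filled where called, with the median of each list as a bar. The guanylate-binding proteins and IRGs have the highest median of the 7 interferon-response lists at 3.36, and the class II list has no called member.

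Day 5 was set beside days 3 and 7, which have their own WT and cKO libraries. On day 3, 1383 genes were called (8.67% of those tested; 6.01% higher and 2.66% lower), and on day 7, 288 (1.81%; 1.13% higher and 0.677% lower). Of the 394 genes higher on day 5, 340 were also higher on day 3 (86.3% of the day 5 list and 35.5% of the day 3 list) and 89 on day 7 (22.6% and 49.4%). Their median log2 fold change was 2.27 on day 3, 2.05 on day 5 and 1.07 on day 7. Of the 105 lower genes, 75 were lower on day 3 and 35 on day 7, and their medians were -0.93, -1.09 and -0.71. Called higher on day 5 and on neither other day were 35 genes.

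A test of the difference between days found no gene. The cKO effect differed between days 5 and 3 for 0 genes by edgeR (0.0%) and 0 by DESeq2, with 737 genes at an unadjusted p under 0.05 (4.62%). Between days 7 and 5 it differed for 0 genes by edgeR and 1 by DESeq2 (0.00303%), with 581 at an unadjusted p under 0.05 (3.64%). By edgeR, 2 genes passed for days 5 and 3 without cKO library 1, and 1 for days 7 and 5 without WT library 1. The order of the days therefore rests on counts and medians.

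In the 7 interferon-response lists the level of WT cells moved toward that of cKO cells with time. The median log2 level relative to WT day 5 was -0.43, -0.55 and -0.66 in WT on day 3, and 1.87, 1.30 and 0.76 in WT on day 7. In cKO it was 1.90, 1.68 and 1.92 on day 3, and 2.0, 1.65 and 1.82 on day 7. The WT and cKO libraries overlapped on day 7 and did not on days 3 and 5. The lists had 98 called members on day 3 (median log2 fold change 2.36), 82 on day 5 (1.70) and 4 on day 7 (0.46), and from day 3 to day 7 the WT median rose by 1.89.

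**Figure D4:**
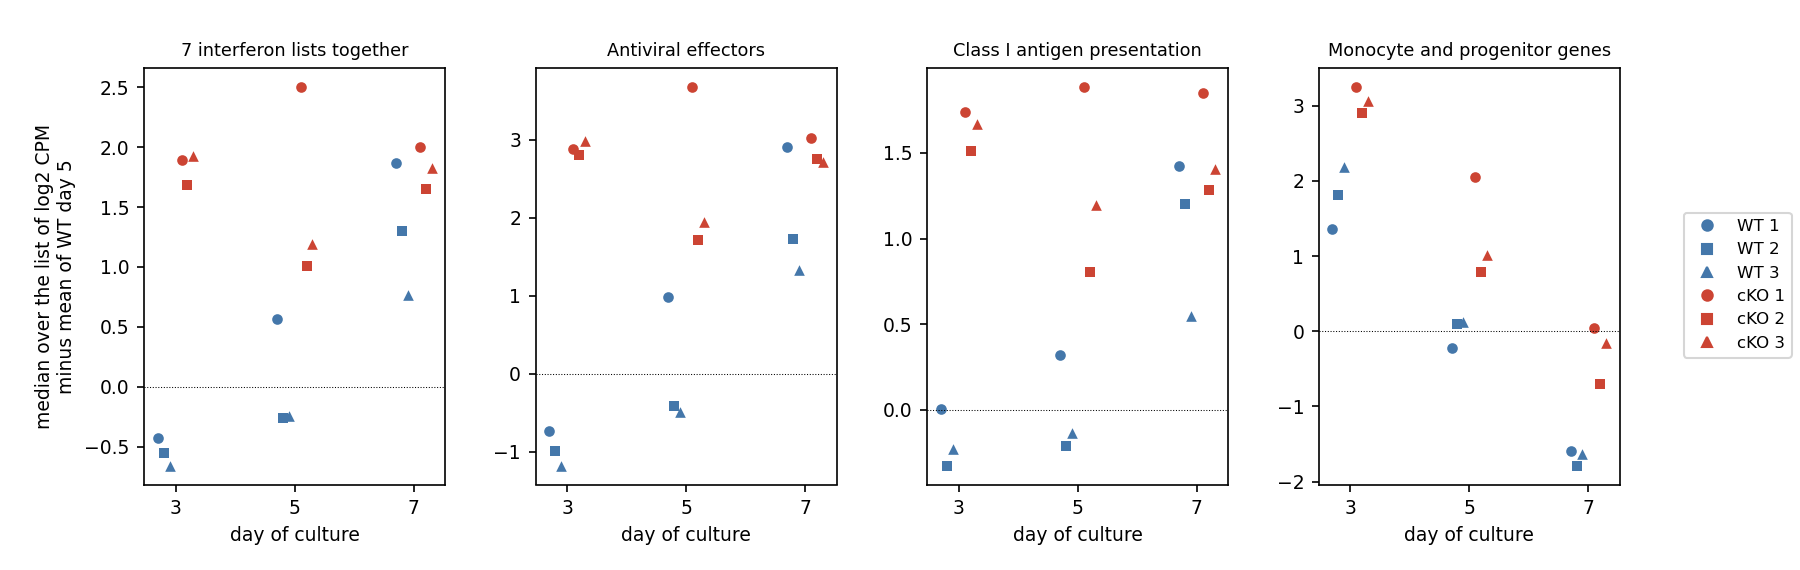
Median over each list of log2 CPM minus the WT day 5 mean, against the day of culture, 1 symbol per library. In the 7 interferon lists the WT libraries rise from day 3 (-0.66 to -0.43) to day 7 (0.76 to 1.87) while the cKO libraries lie between 1.01 and 2.50 throughout.

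The higher genes were split by the response of WT macrophages to interferon-gamma on day 8, in libraries of another experiment of the series. Raised and lowered meant an adjusted p under 0.05 (edgeR) and a log2 fold change of more than 1 in size. Smaller changes therefore count as neither. Of 340 higher genes tested in both, 230 (67.6%) were raised by interferon-gamma, 15 (4.41%) were lowered and 95 (27.9%) were neither. With a cut of 2 on the log2 scale, 170 were raised, 6 lowered and 164 neither, so the split depends on the cut. Over all genes tested in both, 1356 of 12903 (10.5%) were raised and 1386 (10.7%) lowered. Of the lower genes, 43 of 102 (42.2%) were lowered and 4 raised. The 95 genes that rose on day 5 and were neither raised nor lowered there had a median of 1.53 on the log2 scale.

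Among those, the cation channel gene Mcoln3 had the smallest p. It was at 3.82, 3.59 and 2.68 CPM in WT and 23.6, 21.7 and 25.6 CPM in cKO (log2 fold change 2.81, SE 0.26, adjusted p = 3.16e-05). The cKO libraries were alike here, library 1 included. Flrt3, which encodes a membrane protein of cell adhesion, was at 0.418, 3.09 and 2.73 CPM in WT and 111, 16.6 and 22.1 CPM in cKO (log2 fold change 4.55, SE 0.78, adjusted p = 0.00623). Cttn, the actin-binding protein cortactin, rose by 2.53, and its call was lost with both libraries numbered 1 left out (adjusted p = 0.0712).

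A few genes of cell death rose. Of 17 BCL2 family members 2 rose (11.8%, against 2.47% of all genes), both BH3-only killers of cells and both outside the genes called raised or lowered by interferon-gamma. Bcl2l11 (BIM) was at 73.0, 61.5 and 63.5 CPM in WT and 174, 133 and 155 CPM in cKO. Its groups did not overlap (log2 fold change 1.22, SE 0.22, adjusted p = 0.00717). The call of Bcl2l11 was lost with both libraries numbered 1 left out (adjusted p = 0.0576). Pmaip1 (NOXA) was at 6.21, 6.74 and 6.45 CPM in WT and 37.8, 13.8 and 15.7 CPM in cKO (log2 fold change 1.79, SE 0.30, adjusted p = 0.00493). Both also rose on day 3, by 1.53 and 2.30. Of 24 caspases and death receptor genes, 3 rose (12.5%, against 2.47%): Daxx, Casp1, the inflammatory caspase, and Ripk3, a kinase of necroptosis (log2 fold changes of Casp1 and Ripk3 0.88 and 0.82). Interferon-gamma raised Daxx and Casp1 in WT macrophages. The count was 0 without any one of WT libraries 1 to 3 or cKO library 1, and 1 without cKO library 3. The calls of Casp1 and Ripk3 were lost without any of WT libraries 1 to 3, cKO library 1 or cKO library 3 (adjusted p at most 0.263 and 0.162). The antiapoptotic genes Mcl1 and Bcl2l1 did not pass (adjusted p = 0.761 and 0.924).

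Of 26 p53 targets 2 rose (7.69%, against 2.47% of all genes) and 1 fell (0.658% of all genes fell). The number of calls, 3 in all, was 1 without WT library 3 or cKO library 1. Those that rose were Plk2 (1.44; adjusted p at most 0.0949 without WT library 2, WT library 3 or cKO library 1) and Pmaip1. Zmat3, which fell, was at 100, 98.2 and 103 CPM in WT and 56.3, 57.2 and 54.9 CPM in cKO (log2 fold change -0.84, SE 0.17, adjusted p = 0.0122; 0.0710 at most without WT library 3 or cKO library 1). Cdkn1a, the cell cycle inhibitor p21, did not pass (188, 336 and 345 CPM in WT and 372, 242 and 250 in cKO, adjusted p = 0.995), and Trp53 did not either (adjusted p = 0.620). Of 31 DNA damage response genes 0 passed, and 0 of 42 DNA replication genes passed (median 0.10). Of 35 mitotic genes 0 passed, with a median of -0.11 that turned to 0.05 without cKO library 1. Mki67, the proliferation marker Ki-67, was at 1260, 1040 and 1120 CPM in WT and 436, 908 and 880 CPM in cKO (log2 fold change -0.62, adjusted p = 0.491). Its cKO libraries all lay below WT, with library 1 lowest.

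Some monocyte and progenitor genes rose in cKO. Of 26 tested, 11 rose, 0 fell and 24 had a log2 fold change above 0 (median 1.45), against 2.47% of all genes called higher. Interferon-gamma raised 6 of the 26 in WT macrophages, against 10.5% of all genes tested in both, so the list overlaps in part with the interferon response. The summed level of the list was 524 to 901 CPM in WT and 1280 to 2670 CPM in cKO. Ly6c2, a surface marker of inflammatory monocytes, was at 14.7, 12.8 and 13.9 CPM in WT and 260, 53.8 and 95.1 CPM in cKO (log2 fold change 3.3, SE 0.53, adjusted p = 0.00406). Ly6a (Sca-1), which marks early progenitors and also responds to interferon, was at 5.07, 6.35 and 5.99 CPM in WT and 614, 164 and 198 CPM in cKO (log2 fold change 5.81, SE 0.63, adjusted p = 0.000194). Genes of promyelocyte granule enzymes rose: Mpo by 2.06, Elane by 2.01, Prtn3 by 2.23 and Ctsg by 2.28. Mpo was at 19.5, 18.5 and 25.1 CPM in WT and 151, 44.9 and 66.6 CPM in cKO, so the groups did not overlap.

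Counts of this list moved with single libraries: 6 members were called without WT library 1, 4 without WT library 2, 4 without WT library 3 and 5 without cKO library 1. Without cKO library 2 the count was 12, without cKO library 3 it was 11, and 3 were called with both libraries numbered 1 left out. Mpo, Elane and Prtn3 lost their calls without any of WT libraries 1 to 3 or cKO library 1 (adjusted p at most 0.159). Ctsg lost it without WT library 2 or WT library 3 (adjusted p at most 0.0726). Kit, Cd34 and Flt3, receptors and surface markers of earlier progenitors, did not pass. In these bulk libraries, a larger share of immature cells and more RNA of these genes per cell cannot be told apart.

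Genes that rise or fall in maturing WT cells were chosen from WT days 3 and 7 and read in the day 5 libraries. Of the 853 falling genes, 64 were called higher in cKO (7.5%) and 3 lower (0.352%). Their median log2 level relative to the WT day 5 mean was -0.23, 0.14 and 0.13 in WT and 0.65, 0.39 and 0.40 in cKO. The groups did not overlap, and the difference of 0.47 was between 0.35 and 0.51 when any WT library of days 3 or 7 was left out of the choice. Of the 977 rising genes, 144 were called higher in cKO (14.7%) and 20 lower (2.05%), against 2.47% and 0.658% of all genes. Their median stood at 0.43, -0.23 and -0.19 in WT and -0.13, -0.16 and -0.15 in cKO, so the groups overlapped. Their difference was -0.15, and it turned to 0.02 without WT day 7 library 2. With the genes of the interferon-gamma list taken out, 10 of 687 rising genes were called higher (1.46%) and 18 lower (2.62%), and their median stood at 0.39, -0.21 and -0.17 in WT and -0.43, -0.32 and -0.36 in cKO, and these groups did not overlap. These values are descriptions, without a test.

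Macrophage identity genes mostly did not pass. Of 32, 1 rose and 1 fell (median -0.13). All cKO libraries lay below all WT libraries for 9 of the 32, against 11.1% of all genes. They lay above them for 4, against 15.4% of all genes. Cbr2, a carbonyl reductase, fell from 19, 12.2 and 12.2 CPM to 4.15, 2.94 and 2.12 CPM in cKO (log2 fold change -2.24, SE 0.33, adjusted p = 0.00251). Siglec1 (CD169), a sialic acid-binding receptor that responds to interferon, was at 326, 127 and 132 CPM in WT and 1230, 390 and 452 CPM in cKO (log2 fold change 1.82, adjusted p = 0.0440; up to 0.315 without WT library 2, WT library 3 or cKO library 1). Markers of other cells that the culture could hold moved as follows, and their part in the results was not tested. Neutrophil genes summed to 699 to 762 CPM in WT and 612 to 1970 CPM in cKO, with 0 of 18 called. Their median of 0.78 turned to -0.09 without cKO library 1, the library that held 1970 CPM. Mast cell and basophil genes summed to 1.73 to 2.26 CPM in WT and 4.02 to 15.5 CPM in cKO. Called were 2 of 6 (33.3%, against 2.47% of all genes), Cpa3 and Gata2. Cpa3 was near the floor, at 0.0552 to 0.103 CPM in WT and 0.343 to 0.888 CPM in cKO. Stromal and collagen genes summed to 41.7 to 87.1 CPM in WT and 131 to 185 CPM in cKO. All 16 tested had a log2 fold change above 0 (median 1.53), 15 had groups apart against 15.4% of all genes, and 1, Fbn1, passed. Cpa3, Gata2 and Fbn1 lost their calls without any of WT libraries 1 to 3, cKO library 1 or cKO library 3 (adjusted p at most 0.296, 0.188 and 0.224). B cell genes summed to 64.7 to 101 CPM in WT and 61.9 to 93.5 CPM in cKO, and erythroid genes to 79.0 to 183 and 90.7 to 194. T and NK cell genes summed to 90.7 to 102 and 117 to 171 CPM, and dendritic cell genes to 164 to 244 and 223 to 677.

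Lower genes were fewer. Among highly expressed ones, chosen after their values were seen, Stab1 (stabilin-1, a scavenger receptor) was at 3380, 3220 and 3440 CPM in WT and 986, 1500 and 1380 CPM in cKO. Its log2 fold change was -1.38 (SE 0.25, adjusted p = 0.00782). The call of Stab1 was lost without cKO library 1 (adjusted p = 0.0570) and without both libraries numbered 1 (adjusted p = 0.0765). Lrp1, an endocytic receptor, was at 5340, 6340 and 6880 CPM in WT and 2390, 3790 and 3460 CPM in cKO (log2 fold change -0.95, SE 0.24, adjusted p = 0.0372). Neither gene's groups overlapped, but the call of Lrp1 was lost without any of WT libraries 1 to 3, cKO library 1 or cKO library 3 (adjusted p at most 0.242). Plxnd1, a semaphorin receptor, was at 619, 502 and 697 CPM in WT and 232, 210 and 219 CPM in cKO (log2 fold change -1.46, SE 0.23, adjusted p = 0.00354). Rac3, a small GTPase, fell from 5.31, 5.86 and 5.83 CPM to 2.01, 2.06 and 2.18 CPM in cKO (log2 fold change -1.44, SE 0.21, adjusted p = 0.00251).

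Rpl29, a protein of the large ribosomal subunit (chromosome 9, 106429454 to 106431568, plus strand), had the smallest p among the lower genes other than Lyz2 and H3f3a. It was at 64.0, 108 and 107 CPM in WT and 24.2, 19.6 and 22.4 CPM in cKO (log2 fold change -2.08, SE 0.21, adjusted p = 5.78e-05). It was also lower on days 3 (-2.52) and 7 (-2.08). Genes near it fell too: Pcbp4 (23.84 kb from the start of Rpl29) had a log2 fold change of -2.02, Abhd14b (18 kb) of -1.66, Abhd14a (18.22 kb) of -1.31, and Dusp7, on the other side (-60.82 kb), of -0.99. Abhd14a and Abhd14b overlap, and the counts used carry no strand, so reads in the overlap are uncertain. With the stranded counts Abhd14b stayed called. Acy1, between Rpl29 and Abhd14a, did not pass (log2 fold change 0.48, adjusted p = 0.516). All 4 neighbours had the same sign on days 3 and 7. Dusp7 and Pcbp4 lost their calls without WT library 3 or cKO library 1 (adjusted p at most 0.0716 and 0.0636). Abhd14a lost it without WT library 2, WT library 3, cKO library 1 or cKO library 3 (up to 0.0940), and Abhd14b without WT library 2, WT library 3 or cKO library 1 (up to 0.135).

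Within 5 Mb of Rpl29, 155 other genes were tested and 11 were called, 5 higher and 6 lower (7.10%, against 3.13% of all genes). Around Gt(ROSA)26Sor, a locus much used for transgenes, 5 of 82 neighbours were called (6.10%), 4 of them lower. Gt(ROSA)26Sor itself was at 18.8, 16 and 26 CPM in WT and 3.49, 4.90 and 4.19 CPM in cKO (log2 fold change -2.27, SE 0.41, adjusted p = 0.00768; up to 0.0527 without WT library 3 or cKO library 1). It is annotated as antisense, and the counts used, without strand, do not tell its reads apart from those of a partner on the other strand. With the stranded counts Gt(ROSA)26Sor stayed called. Around the floxed genes the share was 1.35% of 74 neighbours for H3f3a and 3.85% of 182 for H3f3b, and around Lyz2 it was 4.08% of 49. Around Gm42031, another of the largest falls, 1 of 100 neighbours was called (1.0%). The windows around Rpl29, Gt(ROSA)26Sor and Gm42031 were chosen after their values were seen, so their shares are descriptions.

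**Figure D5:**
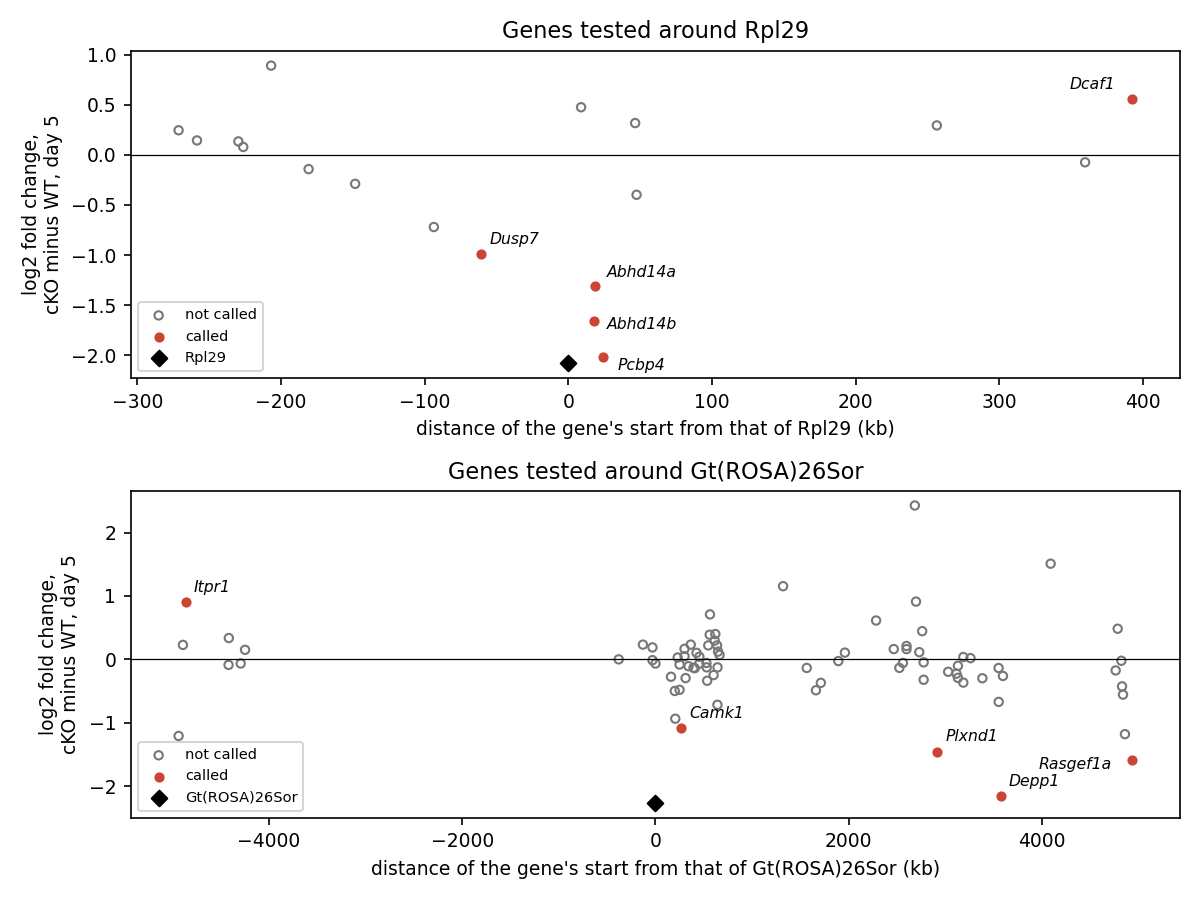
Log2 fold change on day 5 of the genes tested within 400 kb of Rpl29 and within 5 Mb of Gt(ROSA)26Sor, against the distance of each gene's start from that of the locus in kb, filled where called. Dusp7, Abhd14a, Abhd14b and Pcbp4 lie below 0 beside Rpl29, and Acy1 lies above 0 among them.

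Metabolic genes showed few calls. Of 33 sterol and fatty acid synthesis genes 0 passed (median -0.53), and 12 had every cKO library below every WT library, against 11.1% of all genes. The median was -0.04 without WT library 1, in which Scd2, a fatty acid desaturase, was at 1540 CPM against 62.8 and 76.1 in the other WT libraries and 76.8 to 197 in cKO. Of 44 nucleotide synthesis genes 1 passed: Gmpr, guanosine monophosphate reductase, fell by 0.82 on the log2 scale (12.0, 11.1 and 12.8 CPM in WT and 5.92, 7.41 and 6.95 CPM in cKO, adjusted p = 0.00895; up to 0.0651 without WT library 3 or cKO library 1). The median of that list was 0.09 and turned to -0.06 without WT library 1. Of 23 genes of lipid handling and sphingolipids, Sptlc2 rose by 0.45 and Sptssa fell by 0.63, both subunits of the enzyme that begins sphingolipid synthesis. Both calls were lost without any of WT libraries 1 to 3 or cKO library 1, that of Sptlc2 also without cKO library 3 (adjusted p at most 0.166 and 0.213). Of 16 integrated stress response genes 0 passed (median 0.61), and Atf4 was at 126 to 176 CPM in WT and 144 to 258 CPM in cKO. Among 10 chaperones of H3.3, Daxx, which also responds to interferon, rose by 1.49 (adjusted p = 0.0286; up to 0.181 without any of WT libraries 1 to 3 or cKO library 1), while Atrx and Ubn1 did not pass.

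Of 17 genes that the study names for its RNA-seq, 5 rose (29.4%, against 2.47% of all genes) and 3 fell on day 5 (0.658% of all genes fell). The number of calls, 8 in all, was 4 without WT library 2 and 3 without WT library 3 or cKO library 1. It was 7 without WT library 1 and 9 without cKO library 2. Since the study chose these genes on the same libraries, the counts are no independent evidence of a direction. Those that rose include Bcl2l11, Ddx58, Ifi44 and Irf7, and those that fell were Gmpr, Rac3 and Sptssa.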

How the data were processed

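RNA-seq of ribosomal RNA-depleted RNA was deposited by the authors as STAR read counts per gene, 1 table per library with 55450 genes. Per the labels and methods, reads were trimmed with Cutadapt and aligned with STAR to mm10; tool versions are not given in the sources used here. The unstranded counts were used, from uniquely mapped reads only, without authors' normalization.

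Groups were taken from the labels. Genes were kept by filterByExpr (smallest count 10, total 15), scaled by TMM, and fitted with edgeR 4.0.16 (R 4.3.3, limma 3.58.1, robust quasi-likelihood, Benjamini-Hochberg) over all 18 time-course libraries in 6 groups; days were compared by interaction contrasts. DESeq2 1.42.0 was an alternative. On simulated counts for the day 5 comparison over 15955 genes, 77 of 100 genes changed 2-fold and 96 of 100 changed 4-fold were recovered, none in the wrong direction, with 7 others called. The changed genes all had a mean log2 CPM of at least 3. Counts were drawn independently, without the shared deviation seen in the libraries numbered 1. These figures therefore need not hold for the real libraries or for genes of lower level. The day 8 interferon-gamma list (12 hours) came from separate libraries.

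Named genes were the targeted genes and Lyz2, genes the study names, the 12 largest rises and falls with groups apart and a mean log2 CPM of at least 3, the 8 largest such rises outside the interferon-gamma list, and up to 4 called and 2 not called members per list. Others were named after their values were seen, among them Isg15, Ifit3, Mpo, Elane, Prtn3, Ctsg, Stab1, Lrp1, Cdkn1a, Trp53 and the neighbours of Rpl29. Members and lists were chosen with earlier results of these data known. The labels do not say whether libraries are separate mice, so p-values measure only the spread between these libraries. With 3 against 3, no exact permutation test was run. Intervals and ratios of counts cover counting error only. Values of some genes are not reported here.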

Additional observations from a re-analysis of the deposited data

Results flagged for a closer look

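For 3 of 193 named genes, the cKO and WT libraries did not overlap on day 5 or on day 3 but stood in opposite directions on these days. Over all 15955 genes tested this held for 112 (0.702%), and on day 5 alone 15.4% of genes had all cKO libraries above WT and 11.1% below. Dnmt1, the maintenance DNA methyltransferase, had a log2 fold change of 0.117 on day 5 and -0.06 on day 3. Ccl2, a monocyte chemokine, was at 0.952 on day 5 and -0.86 on day 3, and Pcna, the sliding clamp of replication, at 0.249 and -0.23. The interaction test of the difference between days (edgeR, Benjamini-Hochberg) passed for none of the 3, with adjusted p-values of 0.899, 0.866 and 0.866. None of the 3 passed the test on day 5.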

How the results depend on the processing

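Of 94 called named genes, 9 (Cbr2, Gm42031, H3f3a, Ly6a, Lyz2, Mcoln3, Plxnd1, Rac3 and Rpl29) were called under every alternative, and no call reversed. Against 499 changed genes (394 higher, 105 lower), leaving out 1 library gave 99 to 581 (69 to 491 higher, 21 to 90 lower), and leaving out both libraries numbered 1, chosen after seeing the data, gave 166 (142 and 24). No filter on low counts gave 318 (246 higher), a fit to the day 5 libraries alone 134 (73 higher, 61 lower), a log2 fold change of at least 1 left 56 lower genes, and DESeq2 called 186 lower genes. In the 7 interferon-response lists 35 members were called without a filter, 2 with the day 5 libraries alone and 8 to 92 with 1 library left out. Of the monocyte and progenitor genes these gave 6, 1 and 4 to 12, and 3 were called without both libraries numbered 1. For nucleotide synthesis the count was 0 at a log2 fold change of at least 1 and without both libraries numbered 1, and 0 to 1 with 1 library left out; for sterol synthesis it was 1 with the stranded counts. The effect differed between days 5 and 3 for 0 to 2 genes with 1 library left out and 2 without both libraries numbered 1, and between days 7 and 5 for 0 to 1, 1 without both and 1 by DESeq2. With the replicate block, 664 genes were called, 489 of the 499 among them, and 1 gene differed between days 7 and 5; with the block and the day 5 libraries alone, 429 genes, 5 monocyte and progenitor genes and 2 nucleotide synthesis genes were called. Libraries of the same number deviated from their group means with correlations of 0.123, -0.0232 and 0.167 on day 5, 0.419, 0.126 and 0.252 on day 3 and 0.467, 0.153 and 0.201 on day 7. Since not every one was over 0.1, the numbers were not taken as pairs, and on day 5 not every library correlated best with its own number. Causes of these changes were not tested, and some alternatives also use fewer libraries. With 3 libraries a group, small changes could escape detection: 77 of 100 simulated 2-fold changes were called.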
